A study of Mus musculus with 2 samples.

Results

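Transcripts of 10 antioxidant enzymes were measured in the thymus of newborn mice. They were the 6 peroxiredoxins (Prdx1 to Prdx6), thioredoxin (Txn1), the glutathione peroxidases Gpx1 and Gpx4, and the copper and zinc superoxide dismutase Sod1. The genes were chosen by name, as enzymes of 1 chemical system, out of 21474 protein-coding genes matched to the annotation, and all 10 were found. The thymus came from mice of strain B6NCrl at postnatal day 0, and 2 libraries were made, replicate 1 from pup 6 and replicate 2 from pup 7, without treatment or genetic change in the labels. Each library was made from 13 pg of total RNA, which the labels equate with 1 cell, so each is a very small draw from the RNA of a whole organ. The labels call the assay single cell RNA-seq and link a Smart-seq protocol, although the RNA was extracted from tissue. The labels list 1 donor for both pups, and sex was not collected. With 1 group and 1 library per pup the data give levels and the spread between these libraries, and no test between groups was possible. The tables held 25999043 and 31902773 expected counts (estimated reads, which need not be whole) in mouse genes of replicates 1 and 2.

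Peroxiredoxins break down hydrogen peroxide and organic peroxides with a reactive cysteine. In the typical 2-Cys enzymes the oxidised cysteine forms a disulfide with a partner subunit, which thioredoxin reduces again at the cost of NADPH. Glutathione peroxidases do the same work with selenocysteine and glutathione, and superoxide dismutases make the hydrogen peroxide that both families consume. In the thymus, oxidants come from the mitochondria of dividing thymocytes and from macrophages that clear the many cells that die during selection, and loss of Gpx4 in T cells is known to let lipid peroxides build up.

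The coding sequence around the catalytic residue is shown because it defines both peroxidase families and because the transcripts discussed further on differ in whether they carry it. Each line gives 45 bases of the GENCODE M21 transcript, 5′ to 3′, and the capitals mark the catalytic codon. That codon specifies the peroxidatic cysteine in the peroxiredoxins, the first cysteine of the active-site pair in Txn1, and selenocysteine in Gpx1 and Gpx4, where TGA, elsewhere a stop codon, is read through.
Prdx1: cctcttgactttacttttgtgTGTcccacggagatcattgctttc
Prdx2: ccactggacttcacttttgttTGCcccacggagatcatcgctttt
Prdx3: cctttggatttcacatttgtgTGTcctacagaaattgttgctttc
Prdx4: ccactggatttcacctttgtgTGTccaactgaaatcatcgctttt
Prdx5: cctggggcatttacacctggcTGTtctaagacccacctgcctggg
Prdx6: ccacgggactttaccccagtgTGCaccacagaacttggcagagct
Txn1: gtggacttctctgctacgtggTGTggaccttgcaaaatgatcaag
Gpx1: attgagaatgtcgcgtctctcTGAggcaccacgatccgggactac
Gpx4: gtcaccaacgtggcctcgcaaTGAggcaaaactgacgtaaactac
The codon is number 52 in Prdx1, 51 in Prdx2, 109 in Prdx3 and 127 in Prdx4, the latter 2 of which encode leader sequences ahead of the mature enzyme. It is number 47 in both Prdx6 and Gpx1. In Gpx4 it is number 73 of the longer open reading frame, Gpx4-202. Over whole coding sequences the closest pair of peroxiredoxins, Prdx2 and Prdx4, shared 74.3% of aligned bases, and Gpx1 and Gpx4 shared 65.5%.

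All 10 enzymes were read in both pups, with at least 859 counts in each library. Among protein-coding genes 32.1% had 1 or more counts in both libraries and 23.0% had 100 or more in both. Together the 10 took 5298 TPM in replicate 1 and 4508 in replicate 2 (4903 ± 558, SD, n = 2), where TPM is a level per transcript length, scaled here to a sum of 1000000 over mouse genes. That was 0.530% and 0.451% of the mouse total.

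Prdx1 was the most abundant of the typical 2-Cys enzymes, which form disulfide-linked dimers. This cytosolic enzyme (chromosome 4, 116685544 to 116700822, plus strand, GRCm38) stood at 1256 TPM in replicate 1 and 859 in replicate 2 (1057 ± 281). Prdx2, the cytosolic form best known from red cells (chromosome 8, 84969587 to 84974834, plus strand), stood at 589 and 286 TPM (438 ± 214). Replicate 1 was thus the higher library for both. Prdx4, the secretory pathway form (chromosome X, 155323918 to 155340754, minus strand), stood at 191 and 107 TPM (149 ± 58.9). Prdx3, the form of the mitochondrial matrix (chromosome 19, 60864051 to 60874556, minus strand), had 859 and 1628 counts, which gave 30.5 and 51.1 TPM (40.8 ± 14.6). Over all transcripts it was the lowest of the 10 in both libraries, and it was the one peroxiredoxin that was higher in replicate 2. Prdx1 alone made up 43.0% and 52.2% of the TPM of the 6 peroxiredoxins.

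The other two peroxiredoxins work without a disulfide between subunits. Prdx5, an atypical enzyme found in mitochondria, peroxisomes and cytosol (chromosome 19, 6906697 to 6910106, minus strand), stood at 404 TPM in replicate 1 and 151 in replicate 2 (278 ± 179). Prdx6, the 1-Cys enzyme that also has phospholipase activity (chromosome 1, 161240112 to 161251219, minus strand), stood at 448 and 189 TPM (319 ± 183) over all its transcripts, but at 41.8 and 22.8 TPM (32.3 ± 13.5) on models annotated as protein-coding. Both were lower in replicate 2. Txn1, the small protein that reduces the 2-Cys peroxiredoxins (chromosome 4, 57943373 to 57956411, minus strand), stood at 529 and 462 TPM (495 ± 48.0) and differed least between the pups among the 10.

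Both glutathione peroxidases among the 10 were higher in replicate 2. Gpx3, a secreted glutathione peroxidase outside the 10, was higher in replicate 1, at 102 and 63.1 TPM. Gpx1, the cytosolic and mitochondrial enzyme for hydrogen peroxide (chromosome 9, 108338903 to 108340343, plus strand), stood at 525 TPM in replicate 1 and 1045 in replicate 2 (785 ± 367). Gpx4, which reduces lipid hydroperoxides within membranes and so holds back ferroptosis (chromosome 10, 80047166 to 80056439, plus strand), stood at 241 and 566 TPM (403 ± 230). Within each library Gpx1 was the more abundant of the pair, 2.18 times Gpx4 in replicate 1 and 1.85 times in replicate 2. Sod1 (chromosome 16, 90220754 to 90226329, plus strand) stood at 1083 and 792 TPM (938 ± 206) and was second to Prdx1 by mean level.

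By mean TPM over all transcripts the order was Prdx1, Sod1, Gpx1, Txn1, Prdx2, Gpx4, Prdx6, Prdx5, Prdx4 and Prdx3. For the first 8 of the 9 neighbouring pairs in that order the ranges over the 2 libraries overlapped, so by that rule those neighbours did not differ beyond their spread. Of those pairs, Prdx1 and Sod1, Prdx6 and Prdx5, and Prdx5 and Prdx4 nevertheless kept their order within each library. Prdx3 lay below Prdx4 in both libraries with no overlap. On protein-coding models alone Prdx6, at 32.3 TPM, was last by mean, below Prdx3 at 40.8, and lay below Prdx3 in replicate 2 but not in replicate 1. Among protein-coding genes Prdx1 ranked 103 by mean TPM, Sod1 129, Gpx1 165, Txn1 279, Prdx2 323, Gpx4 352, Prdx6 471, Prdx5 551, Prdx4 1165 and Prdx3 3910. The highest in replicate 1 was Prdx1 and the highest in replicate 2 was Gpx1. The protein-coding gene with the least distance from Prdx1 over the 2 libraries, in log2(TPM + 1), was Sh3bgrl3 (distance 0.0091, at 1256 and 864 TPM). That from Sod1 was Tpt1 (0.036, at 1098 and 809 TPM) and that from Gpx1 was Uqcr10 (0.070, at 503 and 1068 TPM). Likeness over 2 libraries rests on 2 values per gene and is given as a description.

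**Figure D1:**
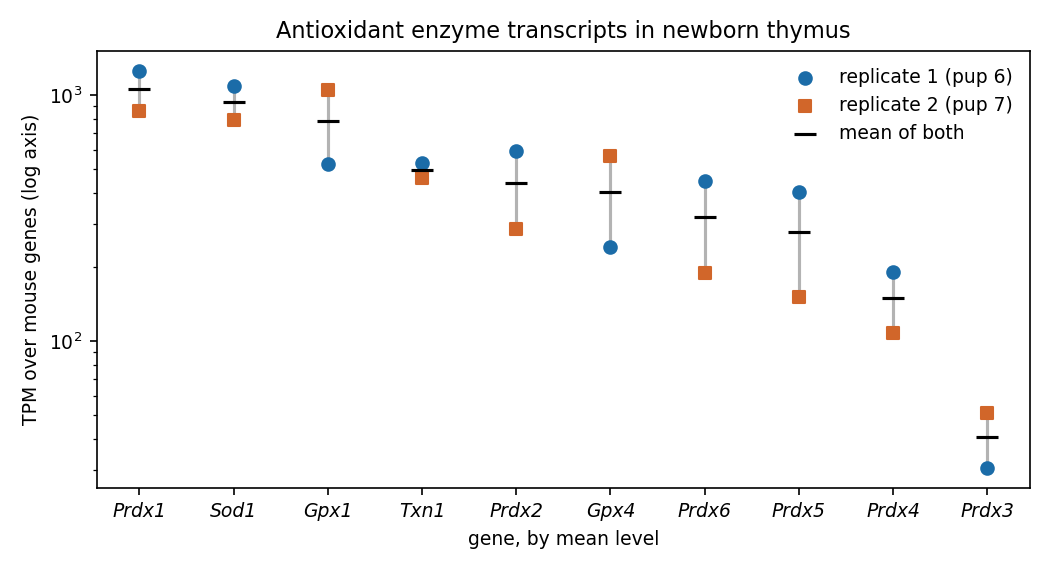
TPM over mouse genes (log axis) of the 10 enzymes in replicate 1 (circles) and replicate 2 (squares), with the mean as a bar and a grey line joining the libraries. The 5 peroxiredoxins other than Prdx3 lie higher in replicate 1, Gpx1 and Gpx4 lie higher in replicate 2, and Prdx3, over all transcripts, is lowest in both at 30.5 and 51.1 TPM.

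Between the pups the summed peroxiredoxins and the pair Gpx1 and Gpx4 lay on opposite sides. The 6 peroxiredoxins held 2920 TPM in all in replicate 1 against 1644 in replicate 2, with 5 of 6 higher in replicate 1, where 47.0% of the 9341 mouse genes averaging 100 or more counts were higher and 53.0% were higher in replicate 2. Gpx1 and Gpx4 summed to 766 and 1610 TPM, both being higher in replicate 2, unlike Gpx3. Peroxiredoxin TPM was therefore 3.81 times the TPM of Gpx1 and Gpx4 in replicate 1 and 1.02 times in replicate 2. These sums take all transcripts. On models annotated as protein-coding Prdx2 stood at 407 and 246 TPM and Prdx6 at 41.8 and 22.8, so both ratios would be lower there. The difference is between 2 libraries, with no replicate of either pup behind it.

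The log2 ratio of replicate 2 over replicate 1, with 1 TPM added to both, was -1.41 for Prdx5, -1.24 for Prdx6, -1.04 for Prdx2, -0.82 for Prdx4, -0.55 for Prdx1, -0.45 for Sod1 and -0.20 for Txn1. It was 0.73 for Prdx3, 0.99 for Gpx1 and 1.23 for Gpx4. Of the 10, 4 differed at least 2-fold, namely Prdx5, Prdx6 and Prdx2 (higher in replicate 1) and Gpx4 (higher in replicate 2), and Gpx1 lay just under, at 1.99-fold. Prdx2 did not pass under edgeR TMM factors (-0.87), DESeq2 size factors (-0.83) or CPM (-0.998), and Gpx1 passed under TMM (1.04) and DESeq2 factors (1.08). Of those 9341 genes 67.7% passed the same fold, 29.7% higher in replicate 1 and 38.0% higher in replicate 2. The median log2 ratio was -0.50 over the 10 enzymes and 0.17 over those 9341 genes.

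The scatter between these libraries depended strongly on read count. All 4 enzymes past 2-fold had mean counts between 3000 and 10000, where 44.4% of genes passed it and the log2 ratio had a robust SD (scaled from the median absolute deviation) of 1.31. Each of the 4 was within 1.5 log2 units of zero, about the size of that spread. Prdx1, Txn1, Gpx1 and Sod1 had mean counts between 10000 and 30000, where 18.9% of genes passed 2-fold, and none of them did. Prdx3 and Prdx4, between 1000 and 3000 counts, did not pass it either, in a range where 68.4% of genes did and the robust SD was 3.06. None of the 10 lay in the lowest range, 100 to 1000 counts, where 88.1% passed, or above 30000, where 6.25% did. The deposited credibility intervals, which cover the estimation from reads only, had widths from 3.42% to 13.4% of the posterior mean for the 10 enzymes.

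**Figure D2:**
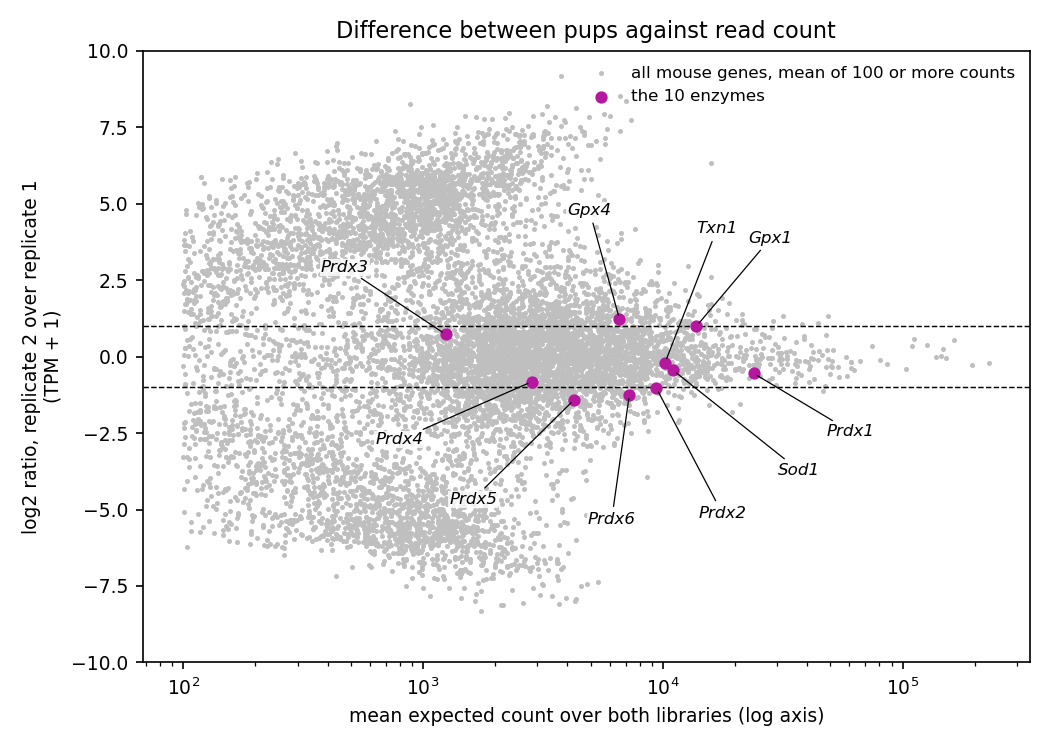
Log2 ratio of replicate 2 over replicate 1, on TPM with 1 added, against mean expected count (log axis) for 9341 mouse genes (grey) and the 10 enzymes (labelled). Dashed lines mark a 2-fold difference. The enzymes lie inside the cloud of genes of like count, from -1.41 for Prdx5 to 1.23 for Gpx4.

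The transcripts to which reads were assigned differed in kind from gene to gene. Prdx3, Txn1 and Sod1 each had a single model in the tables, and Prdx4-201 held 99.96% and 100% of Prdx4 TPM in replicates 1 and 2. For Prdx1, Prdx5, Gpx1 and Gpx4 at least 98.4% of TPM lay on models annotated as protein-coding in both libraries. In Prdx1, Prdx1-204, whose last exon spans 1652 bases, took 16436 of 26862 counts in replicate 1 but 29.2% of TPM. Prdx1-201, which ends 16 bases into that exon, took 8281 counts and 60.1%. The corresponding shares in replicate 2 were 30.2% and 61.6%.

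Prdx6 stood apart, since most of its TPM fell on models that are not annotated as coding. The leading model, Prdx6-208, is annotated as a target of nonsense-mediated decay, the pathway that degrades messages with early stop codons. It held 51.9% of Prdx6 TPM in replicate 1 and 45.0% in replicate 2. Prdx6-208 goes from exon 1 straight to the exon at 161244196 to 161244342, and lacks the 157-base exon 2 (161247257 to 161247413) of the coding model Prdx6-202. The catalytic codon printed above, at 161247368 to 161247370, lies in that exon. The coding model Prdx6-202 held 9.33% and 12.1%, and the noncoding models Prdx6-204 and Prdx6-207 held 32.0% and 6.69% in replicate 1, and 14.0% and 28.9% in replicate 2. Models that carry the 45 bases around the catalytic codon, coding or not, held 48.1% and 55.0%. Prdx6-208 and Prdx6-202 also differ at their 3′ ends. The last exon is 835 bases long in Prdx6-208 and 1738 in Prdx6-202, so the share does not measure skipping of exon 2 on its own.

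Prdx2 was the other enzyme with a large noncoding share. The retained-intron model Prdx2-205, which has 2 exons and lacks the catalytic codon, held 30.8% of Prdx2 TPM in replicate 1 and 13.9% in replicate 2. Protein-coding models held 69.1% and 86.0%, led by Prdx2-208 at 42.3% and 57.6%, while Prdx2-201 held 12.3% and 28.4%. Prdx2-202 and Prdx2-203 had 910 and 1338 counts in replicate 1 but 0 and 4.84 in replicate 2. On protein-coding models alone, an alternative chosen after the data were seen, Prdx2 and Prdx6 differed 1.65-fold and 1.80-fold between the pups, and 2 enzymes in place of 4 passed 2-fold, Prdx5 and Gpx4.

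In Gpx4 the TPM was divided between Gpx4-202, whose reading frame starts upstream and encodes the mitochondrial leader, and Gpx4-207, whose first exon starts further downstream. They held 53.5% and 46.5% in replicate 1, and 41.7% and 55.8% in replicate 2. Gpx4-201, with the alternative first exon (80054037 to 80054300) known from the nuclear form of sperm, had 0 counts in replicate 1 and 98.5 in replicate 2, 0.84% of Gpx4 TPM there. In Gpx1 all 4 models carry the selenocysteine codon, and Gpx1-201 led with 51.9% and 56.7%. In Prdx5 the model Prdx5-204, which lacks the stretch with the catalytic codon, held 29.2% and 26.3%, beside 44.2% and 44.5% for Prdx5-203.

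**Figure D3:**
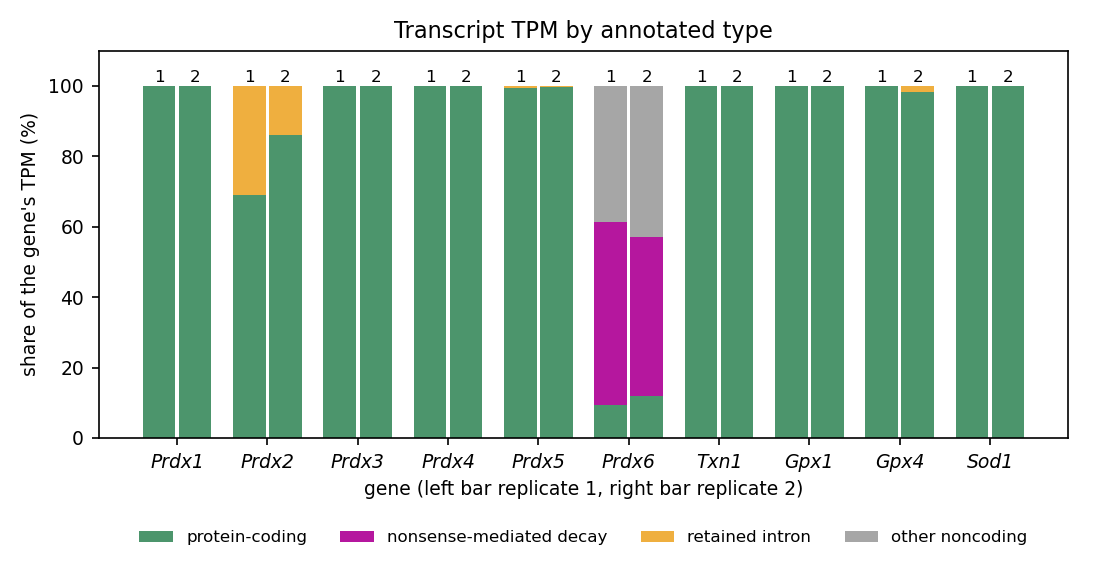
Share of each gene's TPM (%) by the annotated type of its transcripts, with replicate 1 as the left bar and replicate 2 as the right bar of each pair. Prdx6 is mostly on a nonsense-mediated decay model (51.9% and 45.0%) and other noncoding models, Prdx2 has a retained-intron share led by Prdx2-205 at 30.8% and 13.9%, and the other 8 enzymes are nearly all protein-coding.

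Near-identical copies that could be measured had at most 559 counts in a library. The processed pseudogenes Gm7204 and Gm21399, at 97.5% and 98.3% identity to Prdx1 over 597 bases, had 99.1 and 40.0 counts in replicate 1 and 74.1 and 10.6 in replicate 2. Gm8566, at 97.8% identity to Sod1, had 559 and 83.9 counts, equal to 4.62% and 0.838% of the Sod1 counts. Tdpx-ps1, a copy of Prdx2, had 31.0 and 13.0 counts, Txn-ps1 had 3 and 6, Prdx6b had 1 and 0, and Gm15974, another copy of Prdx1, had 1.03 and 0. Reads shared by a gene and its copy were divided by the authors' estimate, so these values are uncertain. Gpx4-ps2 and AC122253.3, copies of Gpx4 at 99.7% and 95.1% identity, were not analysed here. On the opposite strand, Trmt112 overlaps 409 bases of Prdx5 models and had 2402 and 2234 counts, and Rnaseh2a overlaps 177 bases of Prdx2 models and had 1554 and 1782. Junb, which overlaps 173 bases of Prdx2 models, had 146 and 0. Whether reads were counted by strand is not given in the sources used here, and without strand the reads of such overlaps cannot be told apart. Of the Prdx5 models, Prdx5-201 and Prdx5-202 overlap Trmt112, and Prdx5-203 and Prdx5-204 do not.

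Partner genes of the same chemistry, 86 in all, were counted in both libraries. At 1 or more counts, 57 of the 86 were found in both pups, 18 in a single pup and 11 in neither. At 10 or more counts 47 of the 86 were found in both, and at 100 or more 45 were. Of all protein-coding genes 32.1% had 1 or more counts in both libraries and 23.0% had 100 or more. Among the 65 with 100 or more counts in either library, 18 had 3 or fewer in the other (27.7%), beside 36.1% of protein-coding genes under the same rule. None of the 10 enzymes did, but all 10 averaged more than 1000 counts, and sets of like count were not compared. Of the 63 that averaged 100 or more counts, 17 were at least 2-fold higher in replicate 1 and 23 in replicate 2 (63.5% in all, beside the 67.7% of all such genes given above).

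Genes that keep thioredoxin and peroxiredoxins in use divided in this way. Txn2, the mitochondrial thioredoxin that serves Prdx3, stood at 237 and 368 TPM (302 ± 92.2). The mitochondrial thioredoxin reductase Txnrd2 had 2495 and 2266 counts, whereas the cytosolic reductase Txnrd1 had 4122 and 341. Srxn1, the sulfiredoxin that rescues overoxidised 2-Cys peroxiredoxins, had 2408 and 0 counts. The sestrin genes were likewise split, with Sesn1 at 0 and 5507 counts, Sesn2 at 0 and 504, and Sesn3 at 573 and 1. Txnip, which binds and inhibits thioredoxin, was the highest of this list at 432 and 729 TPM (580 ± 210). Txndc17 followed Txn2 at 227 and 257 TPM, and Glrx3 stood at 93.8 and 221. Glrx5, a glutaredoxin of mitochondrial iron and sulfur cluster assembly, had 0 and 149 counts. In all, 10 of the 16 genes of the thioredoxin list were read in both libraries.

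Among genes that make, recycle or use glutathione, counts ranged from 0 in both libraries for Gclc to 6391 and 9200 for Gstp1. Gclc, the catalytic subunit of the rate-limiting ligase, had 0 counts in both libraries, and its modifier subunit Gclm had 1 and 2 counts. Those values are within the 3 counts that counting error alone allows for a count of 0. Neither gene was thus detectable at this depth and RNA input. Gss, which completes the synthesis, had 0 and 8684 counts. Gsr, the reductase that returns glutathione to its reduced form, had 577 and 147 counts. Gstp1, a glutathione transferase, was the highest of the 18 genes at 475 and 605 TPM (540 ± 92.0). Mgst2 stood at 80.3 and 283 TPM and Gpx3, the secreted glutathione peroxidase, at 102 and 63.1. Of the 18 genes 12 had 1 or more counts in both libraries, but Gclm, Gstm1, Gstm5, Mgst1 and Mgst3 had only 1 and 2. In all, 9 of the 18 had 3 or fewer counts in both, among them the transferase Gstk1 at 0 and 0 and the peroxidase Gpx8 at 0 and 1.

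Other enzymes of superoxide and peroxide were lower than Sod1. Sod2, the manganese enzyme of mitochondria, stood at 71.2 and 92.0 TPM (81.6 ± 14.7), Cat, the catalase of peroxisomes, at 52.0 and 41.7 (46.9 ± 7.28), and Sod3, the secreted form, had 0 counts in both. Ccs, the chaperone that loads copper into Sod1, had 0 and 2770 counts. Park7, a redox-sensitive protein, stood at 601 and 780 TPM (691 ± 126). In both libraries Sod1 was thus above Sod2 and Sod3, and Prdx1 and Gpx1 were above Cat.

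Transcripts of genes that supply NADPH were uneven between the libraries as well. G6pdx, the entry enzyme of the pentose phosphate pathway, had 2 and 3317 counts, and Pgd, the next NADPH-making step of that pathway, had 3633 and 964. Pgls, which acts between them, stood at 261 and 225 TPM (243 ± 25.4), and Taldo1 at 154 and 315. Idh2, a mitochondrial source, had 4462 and 27 counts, while Idh1, its cytosolic relative, stood at 169 and 46.1 TPM and Me2 at 178 and 12.2. Me1 had 0 and 1244 counts. Nnt, the mitochondrial transhydrogenase whose gene is truncated in some C57BL/6J stocks, had 4217 and 2556 counts in these B6NCrl pups. Of the 10 genes 9 were read in both libraries, and 7 had 100 or more counts in both.

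Among regulators, Nfe2l2, the factor that drives many antioxidant genes, stood at 22.9 and 111 TPM, and Keap1, which marks it for degradation, at 62.9 and 134. Bach1, a repressor at the same DNA sites, had 8088 and 395 counts. Nqo1, a known target of Nfe2l2, stood at 138 and 205 TPM (172 ± 47.3) and Hmox2 at 195 and 53.5. Hmox1, Mafg and Nfe2l1 had 1, 1 and 0 counts in replicate 1 and 1577, 2594 and 2168 in replicate 2. The core of the antioxidant response element to which Nfe2l2 binds, searched as TGACNNNGC on both strands, was found in the RefSeq promoter windows of Prdx1 and Sod1. Those windows run from 250 bases before to 50 after the gene start on GRCm38.p6, and 9 of the 10 enzymes had 1 or more. That is 2 of their 12 windows, beside 12.4% of all 32851 windows of that length, and a match describes letters and not binding.

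Gpx1 and Gpx4 need the machinery that makes and inserts selenocysteine. Of the 15 genes of the selenoprotein list 11 were read in both libraries, and the other 4, Pstk, Sephs2, Sepsecs and Secisbp2, all belong to that machinery. Pstk, the kinase that starts selenocysteine synthesis on its transfer RNA, had 2457 and 0 counts, and Sephs2, which makes the selenium donor, had 0 and 2633. Sepsecs, which completes selenocysteine on the transfer RNA, had 0 and 1, and Secisbp2, which binds the selenocysteine insertion element, had 0 in both. Eefsec, the elongation factor for selenocysteine, had 1950 and 1266 counts, Trnau1ap had 1410 and 3356, and Secisbp2l had 2943 and 1612. The 4 highest genes of the list were selenoproteins, with Selenof at 390 and 578 TPM (484 ± 133), Selenow at 356 and 424 (390 ± 48.3), Selenoh at 539 and 190 (365 ± 247) and Selenop, the selenium carrier, at 317 and 122 (219 ± 137). Others were lower, with Selenot at 69.3 and 19.6 TPM and Msrb1 at 7.09 and 3.41. Selenof and Selenow were higher in replicate 2, as Gpx1 and Gpx4 were, whereas Selenoh and Selenop were higher in replicate 1.

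On the side that makes oxidants, Cyba, a subunit of the phagocyte oxidase that many cells express, stood at 747 and 770 TPM (758 ± 16.5). Its catalytic partner Cybb had 3234 and 2 counts, Ncf4 had 1763 and 0, and Ncf1 had 0 and 2524. Lpcat3, which places polyunsaturated fatty acids into membrane lipids, the substrates on which Gpx4 acts once oxidised, stood at 50.5 and 110 TPM. The lipoxygenase genes Alox5, Alox12 and Alox15 had 0 counts in both libraries.

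**Figure D4:**
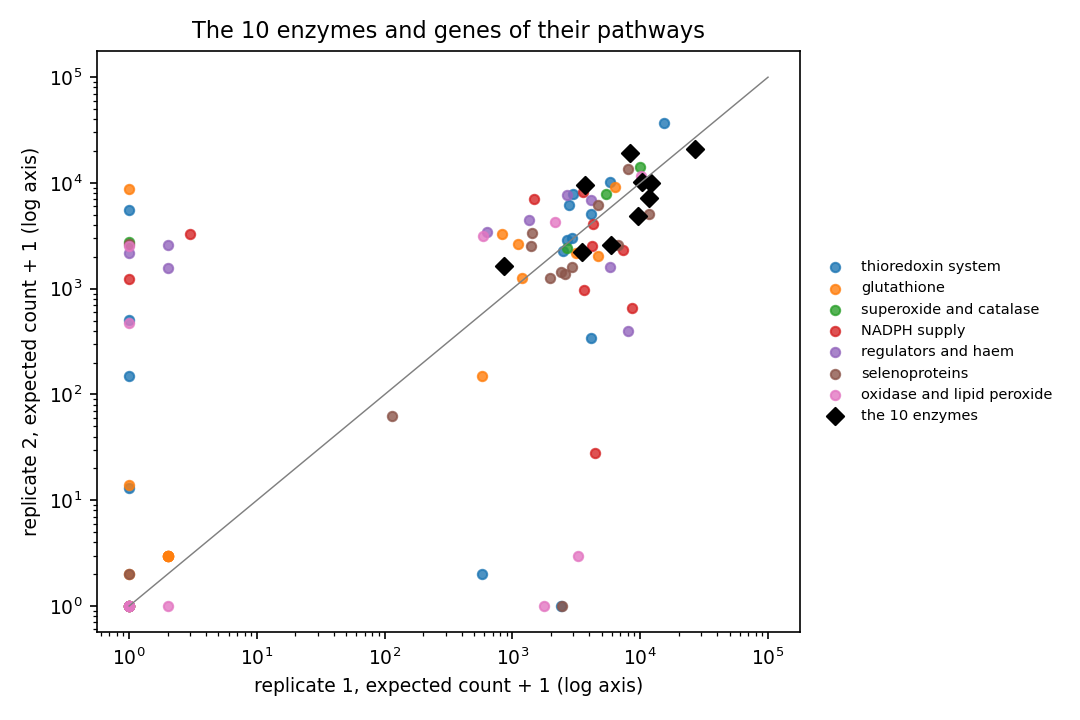
Expected count plus 1 in replicate 2 against replicate 1 (log axes) for 86 pathway genes, coloured by list, and the 10 enzymes (black diamonds). The line marks equal counts. The 10 enzymes all lie in the upper right, at 859 or more counts in both libraries. Of the pathway genes, 18 had 100 or more counts in 1 library and 3 or fewer in the other.

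Markers of the cell types in the tissue were compared beside these values. All 13 T-lineage markers were read in both libraries and summed to 15409 and 15417 TPM. Most of that sum was Trbc2 (6500 and 6037 TPM) and Trbc1 (3150 and 3565). Of the 13, 1 was at least 2-fold higher in replicate 2 (Cd247, 159 and 401 TPM) and 0 in replicate 1. Of 9 thymic epithelial markers 8 were read in both libraries, with Foxn1 at 0 and 1129 counts. The erythroid list summed to 3528 TPM for replicate 1 and 9426 for replicate 2, with all 4 globin genes and Bpgm, of 6 genes averaging 100 or more counts, at least 2-fold higher in replicate 2. That sum was mostly globin. Alas2, the other of those 6 genes, had 1782 and 2284 counts (45.3 and 51.6 TPM). Of the 14 erythroid genes matched, 7 had 3 or fewer counts in both libraries, among them Klf1 and Epb42 at 0 counts in both. Prdx2, abundant in red cells, was 2.05-fold lower in replicate 2 over all transcripts and 1.65-fold lower on protein-coding models. Gpx1 was 1.99-fold higher in replicate 2. Macrophage markers, 9 of 11 read in both, summed to 642 and 1101 TPM, with Adgre1 at 2630 and 0 counts, Csf1r at 1051 and 1, and Mrc1 at 0 and 2303. Among these macrophage markers 3 were at least 2-fold higher in replicate 1 and 6 in replicate 2. Muscle markers, 9 of 10 read in both, summed to 1473 and 426 TPM, with Nppa at 0 counts in replicate 2. Among these muscle markers 6 were at least 2-fold higher in replicate 1 and 1 in replicate 2. Endothelial markers, 4 of 8 read in both, summed to 373 and 165, with Kdr and Tek at 0 counts in both libraries. Of 5 endothelial markers averaging 100 or more counts, 2 were at least 2-fold higher in replicate 1 and 1 in replicate 2. Among all genes averaging 100 or more counts those shares were 29.7% and 38.0%. The part of these cell types in the differences between the pups was not tested. In 13 pg of RNA from whole tissue, fewer cells of a type, less RNA per cell and an uneven draw of RNA cannot be told apart.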

How the data were processed

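The authors deposited, for each library, a gene table and a transcript table of expected counts, posterior mean counts and TPM. Per the file headers the authors' tables also hold the bounds of a credibility interval of TPM, read here as a signal whose level is not stated. Each transcript's percent of its gene's TPM was computed by the authors, per the file headers. The labels name assembly mm10 and the notes deposited with the tables name annotation M4. The sources used here give no aligner, estimating program or strand setting. Gene IDs (43346) were matched without version to GENCODE M21 on GRCm38 (the build also called mm10), with 42462 found. Of 44 transcript models of the 10 genes 43 had the same length in M21. TPM was rescaled to 1000000 over mouse genes, leaving out spike-ins (3.72% and 3.27% of counts) and entries that are not mouse genes. Ratios add 1 TPM. Copies were sought with blastn 2.17.0 (90% identity, 200 bases). Coding sequences were aligned with Biopython 1.88. The ratio step was tested on simulated counts that held counting error only. That test checks the calculation and does not cover the wider scatter between these libraries. Alternatives used edgeR 4.0.16 TMM factors and DESeq2 1.42.0 size factors on rounded counts. The reads carry no molecular identifiers in the tables, so count limits cover counting error only.

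All members are named. Of each pathway list, up to 4 genes of highest mean TPM and those at 100 or more counts in 1 library and 3 or fewer in the other are named. Some list genes that this rule or the marker lists would name are counted but not reported here. Other genes given by value were chosen after their values were seen. Members and lists were chosen with earlier results of these data known. No p-value is given. Replicates were taken from the labels, which list 1 donor for both.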

Additional observations from a re-analysis of the deposited data

How the results depend on the processing

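With posterior mean TPM, deposited TPM including spike-ins, TPM without mitochondrial genes, edgeR TMM factors, DESeq2 size factors, CPM and pseudocounts of 0.1 and 5, the same 7 of the 10 enzymes were higher in replicate 1 (47.0% of all genes were, on the TPM scale of the report), and 3 or 4 passed 2-fold. Prdx2 fell below 2-fold under CPM, TMM and DESeq2 factors, and Gpx1 passed it under TMM and DESeq2 factors. At 1.5-fold 7 enzymes passed, at 4-fold none (0), and on protein-coding models alone 2, where Prdx6 stood at 32.3 TPM. The share of all genes past 2-fold was 65.8% with a minimum of 10 mean counts, 56.0% with 1000 and 16.7% without a minimum. It was 78.9% for 1.5-fold and 50.9% for 4-fold. With either library left out, the summed TPM of the enzymes was that of the other, 5298 or 4508 as given above, which is no separate check. Pathway genes read in both numbered 47 at 10 counts and 46 at 1 TPM. No paired analysis was possible because the study has 1 group. With 13 pg of RNA per library, a gene at 0 counts was not detectable at this depth and is not shown to be absent.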
